A study of Mus musculus with 9 samples.

Results

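The gasdermin genes encode pore-forming proteins and were followed here in mouse colon RNA sequencing, across healthy colon, chemically induced colitis and colitis treated with a channel-blocking peptide. The members were taken by symbol from the deposited table of FPKM (fragment counts divided by transcript length and by the mapped fragments of the library): Gsdmc, Gsdmc2, Gsdmc3, Gsdmc4, Gsdmd, Gsdme and Gsdma, which are 7 of its 35315 genes. All 7 were found. Of these, 4 reached the level required for testing, at least 1 FPKM in at least 3 of the 9 libraries, and 3 (Gsdmc, Gsdma and Gsdme) did not.

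All libraries came from the colon of wild-type C57BL/6J mice aged 8 weeks, with 3 libraries in each of 3 groups. The Control group drank normal water, and no injection is listed for it. The DSS group drank 2.5% dextran sulfate sodium, a polysaccharide that injures the colonic epithelium, for 7 days and received solvent intravenously on days 2, 4 and 6. The GsMTx4 group had the same DSS course and received GsMTx4, a spider-venom peptide that blocks cationic mechanosensitive channels such as Piezo1, at 10 mg/kg on the same days. A difference between DSS and Control therefore holds the DSS and the injections together, and these cannot be told apart. The labels do not state that each library is a separate mouse, so each p-value rests on the spread among the samples sequenced, which may be technical.

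Gasdermins are made as inactive proteins in which the carboxy-terminal part holds back the amino-terminal part. Cleavage between them frees the amino-terminal part, which inserts into the plasma membrane and forms pores that release interleukin-1 family cytokines and can end in lytic cell death, called pyroptosis. Gasdermin D is the target of the inflammasome proteases caspase-1 and caspase-11 (gene Casp4 in the mouse), and gasdermin C is cut by caspase-8. In the mouse intestine the gasdermin C genes are known from epithelial cells, where type 2 cytokines raise them.

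The pan-epithelial marker list (7 of 7 tested, among them Epcam and Krt8) was expressed in every library, as the tissue label requires, with a summed level of 4361 to 5594 FPKM in Control, 4172 to 5709 in DSS and 4329 to 5461 in GsMTx4. None of these 7 passed the limma test in any comparison (0 at an unadjusted p under 0.05 in both comparisons with Control and 1 in GsMTx4 against DSS). Over all genes, 10.1% were at that level in GsMTx4 against Control, and no such share was computed for the other comparisons. Squamous and keratinocyte markers, which mark the anal skin and are relevant because Gsdma and Gsdmc are known from skin, summed to 1.71 to 2.29 FPKM in Control, 1.33 to 2.65 in DSS and 1.61 to 2.23 in GsMTx4. Of these 11 markers, Krt1, Krt4, Ivl, Trp63 and Dsg1a stayed below 0.1 FPKM in every library. The neutrophil marker sum was 70.3 to 90.8 FPKM in Control, 624 to 1125 in DSS and 288 to 549 in GsMTx4, and the monocyte and macrophage sum was 533 to 613, 928 to 1205 and 576 to 727. The spacing of low FPKM values implied about 15100000 to 21500000 fragments per library.

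The 4 gasdermin C genes lie in a row on the minus strand of chromosome 15 (GRCm38, GENCODE M21): Gsdmc at chr15:63775968-63808759, Gsdmc2 at chr15:63824346-63845177, Gsdmc3 at chr15:63857724-63878558 and Gsdmc4 at chr15:63891264-63912297. Between and beside them, on the plus strand, the annotation places the pseudogenes Gsdmcl1, Gsdmcl2 and Gsdmcl-ps. The copies are close relatives, which limits how well short reads can be told apart. The first 90 coding bases of each gene's GENCODE M21 transcript let the copies be compared and are printed with capitals at the 11 positions where the 4 genes are not all alike.
Gsdmc: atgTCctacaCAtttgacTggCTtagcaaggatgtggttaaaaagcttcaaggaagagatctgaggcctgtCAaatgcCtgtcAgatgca
Gsdmc2: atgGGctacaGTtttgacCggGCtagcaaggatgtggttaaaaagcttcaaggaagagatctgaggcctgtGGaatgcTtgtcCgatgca
Gsdmc3: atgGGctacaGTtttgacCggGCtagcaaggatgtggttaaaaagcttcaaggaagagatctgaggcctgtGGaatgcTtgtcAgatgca
Gsdmc4: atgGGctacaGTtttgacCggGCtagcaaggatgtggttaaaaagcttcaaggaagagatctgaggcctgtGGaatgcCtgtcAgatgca

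Only 2 of these 90 positions set Gsdmc2, Gsdmc3 and Gsdmc4 apart from each other. Over the whole coding sequence (1404 bases in Gsdmc and 1440 in the other copies), Gsdmc2 and Gsdmc3 were 97.1% identical, Gsdmc2 and Gsdmc4 93.7%, and Gsdmc3 and Gsdmc4 93.8%. Gsdmc was 86.7% to 87.5% identical to the other copies. Of all stretches of 100 coding bases, 31.2% in Gsdmc3, 28.0% in Gsdmc2 and 27.7% in Gsdmc4 occurred letter for letter in another gasdermin gene, and none occurred in the pseudogenes. The longest run shared by Gsdmc2 and Gsdmc3 was 317 bases, and that of Gsdmc3 and Gsdmc4 was 209. How the submitters counted reads that match more than 1 copy is not given in the sources used here, so the level of each single copy is uncertain. The copies also hold stretches that differ, and the 60 coding bases in which Gsdmc3 and Gsdmc4 differed most, positions 660 to 719 counted from the first coding base, are given with their 11 differences in capitals.
Gsdmc3: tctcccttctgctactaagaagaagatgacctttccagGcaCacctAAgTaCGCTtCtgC
Gsdmc4: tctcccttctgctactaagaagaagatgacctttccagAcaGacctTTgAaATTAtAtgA

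Gsdmc4 was the most abundant gasdermin in all 9 libraries. It measured 424, 291 and 254 FPKM in Control (323 ± 89.4, SD, n = 3), 285, 535 and 445 in DSS (421 ± 127, SD, n = 3) and 539, 535 and 635 in GsMTx4 (570 ± 56.5, SD, n = 3). The Control and DSS libraries overlapped, and the lowest GsMTx4 library sat level with the highest DSS library and above all Control libraries. Gsdmc2 measured 168, 132 and 151 FPKM in Control (151 ± 18, SD, n = 3), 84.9, 154 and 110 in DSS (116 ± 35.1, SD, n = 3) and 234, 177 and 282 in GsMTx4 (231 ± 52.6, SD, n = 3). Every GsMTx4 library lay above every Control and DSS library, while Control and DSS overlapped.

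Gsdmc2 and Gsdmc3 both had a lower group mean in DSS than in Control, and of these only Gsdmc3 showed no overlap. Gsdmc3 measured 101, 76.5 and 94.2 FPKM in Control (90.7 ± 12.7, SD, n = 3), 33.5, 55.6 and 38.6 in DSS (42.5 ± 11.6, SD, n = 3) and 118, 88.1 and 188 in GsMTx4 (131 ± 51.4, SD, n = 3). All 3 DSS libraries were below all 6 others, and GsMTx4 overlapped Control. Gsdmc, the first copy of the row, was close to the limit of detection at 0.0138 to 0.0343 FPKM in Control, 0.0387 to 0.167 in DSS and 0.0113 to 0.0682 in GsMTx4. These values correspond to 8.55 implied fragments at most.

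Gsdmd lies apart from the cluster at chr15:75862327-75867408 on the plus strand. It measured 78.2, 81.6 and 96.8 FPKM in Control (85.5 ± 9.88, SD, n = 3), 222, 275 and 159 in DSS (219 ± 58.4, SD, n = 3) and 164, 97.8 and 108 in GsMTx4 (123 ± 35.8, SD, n = 3). The DSS libraries were all above the Control libraries, and GsMTx4 replicate 1 reached above the lowest DSS library. By group mean, the order of levels was Gsdmc4, Gsdmc2, Gsdmc3 and Gsdmd in Control and GsMTx4, and Gsdmc4, Gsdmd, Gsdmc2 and Gsdmc3 in DSS. Gsdmc3 and Gsdmd overlapped in Control and in GsMTx4, and so did Gsdmc2 and Gsdmc3 in GsMTx4.

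**Figure D1:**
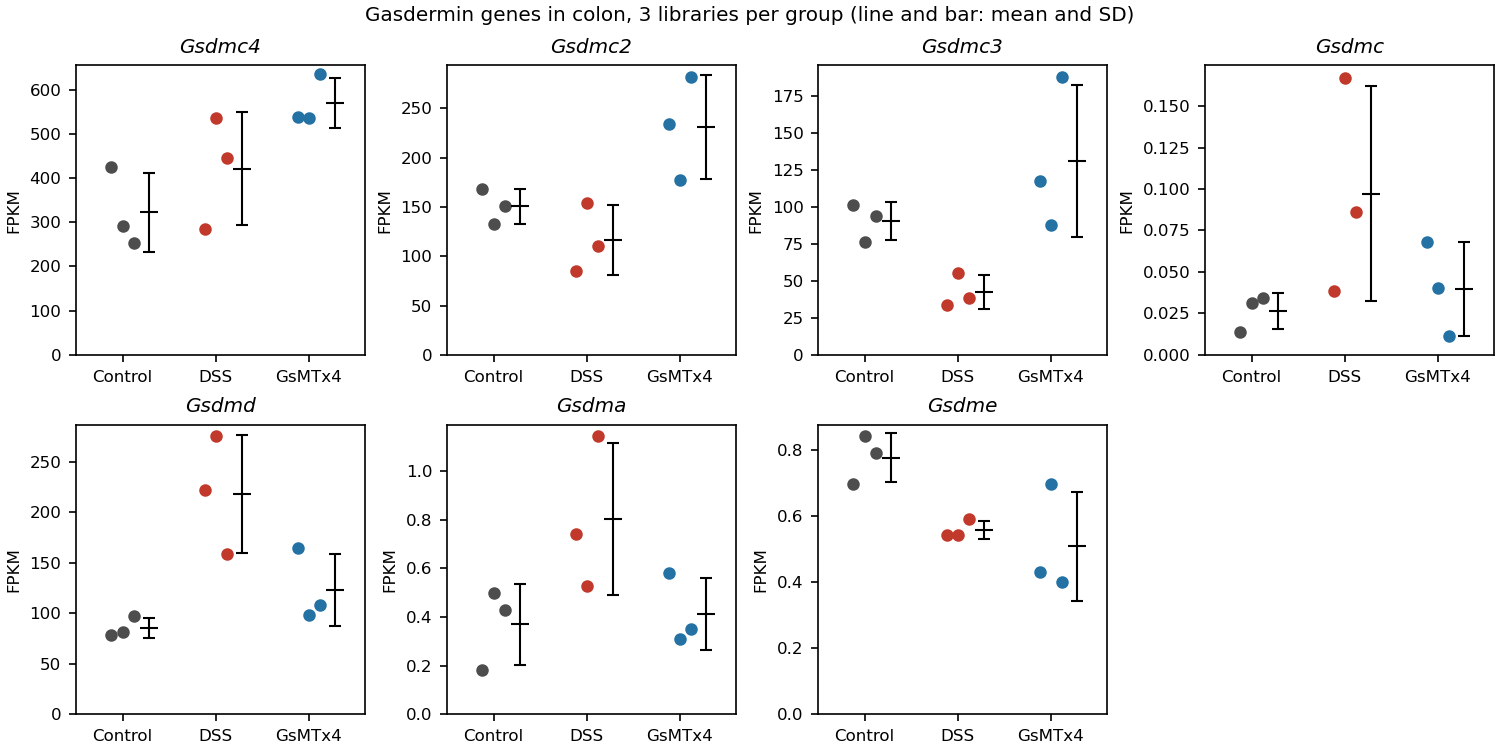
FPKM of the 7 gasdermin genes in each library (points) with the mean and SD of each group of 3 libraries (line and bar), each panel on its own axis from 0. Gsdmc3 was lowest in the 3 DSS libraries, at 33.5 to 55.6 FPKM, where Gsdmd was at 159 to 275, and Gsdmc stayed at or below 0.167 FPKM.

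In DSS against Control, Gsdmd rose and Gsdmc3 fell, whereas Gsdmc2 and Gsdmc4 did not pass the test. The test was limma on log2(FPKM + 1) with all 9 libraries in 1 fit, two-sided, with Benjamini-Hochberg adjustment over the 14360 genes tested, and a call needed an adjusted p under 0.05. Fold changes on this scale understate the change of low genes. The log2 fold change of Gsdmd was 1.31 ± 0.25 (SE, limma, adjusted p = 0.00983), and the call held under every alternative run, with adjusted p from 0.0024 to 0.0444. The log2 fold change of Gsdmc3 was -1.10 ± 0.29 (SE, limma, adjusted p = 0.0313). Gsdmc2 had a log2 fold change of -0.40 ± 0.25 (SE, limma, adjusted p = 0.272) and Gsdmc4 one of 0.37 ± 0.28 (SE, limma, adjusted p = 0.358).

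Against these counts, 6.41% of all tested genes were called higher in DSS and 10.7% lower (17.1% in either direction), and the median log2 fold change of the 4 gasdermins was -0.02 beside -0.17 over all genes. Groups did not overlap for Gsdmd and Gsdmc3, as for 13.5% of all genes on the higher and 33.6% on the lower side. The split of calls over all genes, 921 higher and 1541 lower, depended on the scaling, with 1418 and 919 calls when libraries were scaled by their median ratio and 1335 and 1328 when their quantiles were matched. The Gsdmc3 call was not stable: adjusted p was 0.0983, 0.0654 and 0.0921 without Control replicates 1, 2 and 3, 0.0842 without DSS replicate 1 and 0.0791 without DSS replicate 3. It was also lost with no filter on low values (adjusted p = 0.0787) and with median-of-ratios scaling (0.10), while the direction held throughout.

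In GsMTx4 against DSS, Gsdmc3 and Gsdmc2 rose. The comparison asks what the peptide changed within DSS colitis, and it shares the DSS libraries with the comparison before it. The log2 fold change of Gsdmc3 was 1.57 ± 0.29 (SE, limma, adjusted p = 0.0114), and this call held under every alternative, with adjusted p from 0.0047 to 0.0414. The log2 fold change of Gsdmc2 was 1.0 ± 0.25 (SE, limma, adjusted p = 0.0337). Gsdmc4 was at 0.48 ± 0.28 (SE, limma, adjusted p = 0.278). Gsdmd was at -0.82 ± 0.25 (SE, limma, adjusted p = 0.0638), and it passed only without DSS replicate 3 (adjusted p = 0.0446) or without GsMTx4 replicate 1 (0.0289).

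These 2 calls among 4 tested gasdermins stand beside 6.66% of all genes called higher and 5.62% called lower in GsMTx4 (12.3% in either direction), and the gasdermins' median log2 fold change was 0.74 beside 0.07 over all genes. Gsdmc2 and Gsdmc3 did not overlap between the groups, as was so for 17.5% of all genes on the higher side. Gsdmc4 met this rule only by a tie in practice, at 535.1 FPKM in the lowest GsMTx4 library and 535.093 in the highest DSS library. Calls over all genes numbered 956 higher and 807 lower, and 818 and 1069 after median-of-ratios scaling. The Gsdmc2 call was lost without any 1 of 7 libraries: adjusted p was 0.0513, 0.0555 and 0.0582 without Control replicates 1, 2 and 3, 0.0873 and 0.0819 without DSS replicates 1 and 3, and 0.0614 and 0.0761 without GsMTx4 replicates 1 and 3. It was also lost with no filter (adjusted p = 0.0807), median-of-ratios scaling (0.0731) and a fit of the compared groups only (0.0945).

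In GsMTx4 against Control, no gasdermin passed the limma test, and 2 of 4 had an unadjusted p under 0.05, as did 10.1% of all genes. The log2 fold changes were 0.85 ± 0.28 (SE) for Gsdmc4, 0.60 ± 0.25 for Gsdmc2, 0.49 ± 0.25 for Gsdmd and 0.47 ± 0.29 for Gsdmc3, with limma adjusted p of 0.352, 0.473, 0.553 and 0.611. All 4 lay above the median of all genes, -0.08. The background was low in this comparison, with 0.188% of genes called higher (27) and 0.0487% lower (7), 0.237% in either direction, or 26 and 3 after quantile normalization. The GsMTx4 libraries of Gsdmc4, Gsdmc2 and Gsdmd were all above the Control libraries, and 5.0% of all genes were separated in that direction.

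**Figure D2:**
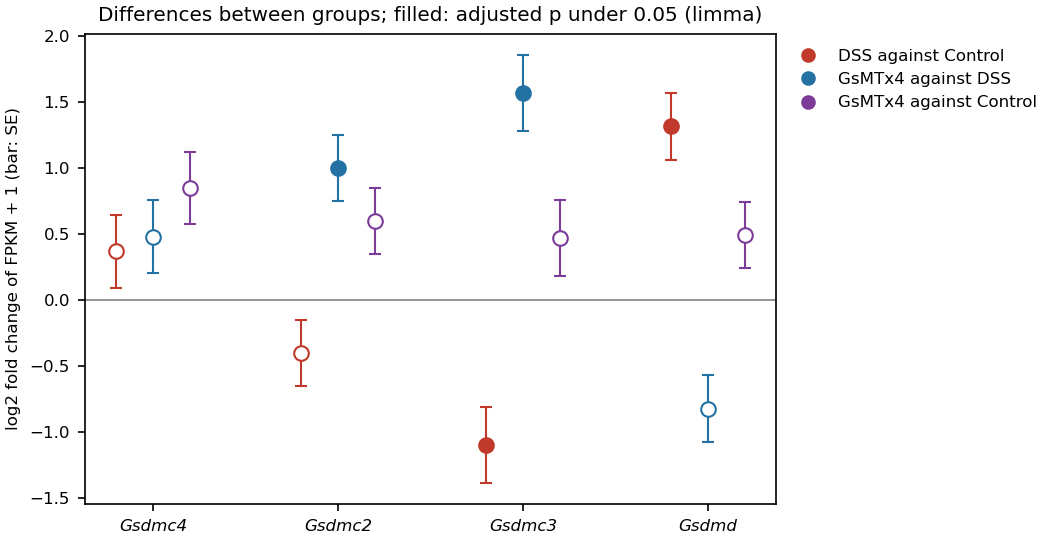
log2 fold change of FPKM + 1 (y axis, bars SE) of the 4 tested gasdermins in the 3 comparisons, with filled points for adjusted p under 0.05 in limma. Filled points are Gsdmd (1.31) and Gsdmc3 (-1.10) in DSS against Control and Gsdmc2 (1.0) and Gsdmc3 (1.57) in GsMTx4 against DSS.

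The shares of Gsdmc4, Gsdmc2 and Gsdmc3 in the cluster set the DSS libraries apart, while Control and GsMTx4 overlapped. Whether the change of 1 copy differed from that of another was not tested. Because the copies share sequence, their FPKM were also summed. The sum was 499 to 694 in Control (564 ± 112, SD, n = 3), 403 to 745 in DSS (580 ± 171, SD, n = 3) and 800 to 1105 in GsMTx4 (932 ± 157, SD, n = 3). Control and DSS overlapped widely, and all GsMTx4 libraries lay above the rest. These sums and the shares that follow are descriptions with no test. Shares within a library are not independent, since a lower share of 1 copy raises those of the others.

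Gsdmc4 made up 50.9 to 61.1% of the sum in Control, 70.6 to 74.9% in DSS and 57.5 to 66.9% in GsMTx4, so that the DSS libraries were highest with no overlap. The share of Gsdmc3 was 14.6 to 18.9% in Control, 6.50 to 8.31% in DSS and 11 to 17% in GsMTx4, lowest in the DSS libraries. The share of Gsdmc2 was 24.3 to 30.2%, 18.5 to 21.1% and 22.1 to 26.2%. Gsdmc4 was 2.70 to 4.19 times the level of Gsdmc3 in Control, 8.50 to 11.5 times in DSS and 3.38 to 6.08 times in GsMTx4. Even the closest pair separated: Gsdmc2 was 1.60 to 1.73 times the level of Gsdmc3 in Control, 2.54 to 2.85 times in DSS and 1.5 to 2.01 times in GsMTx4.

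**Figure D3:**
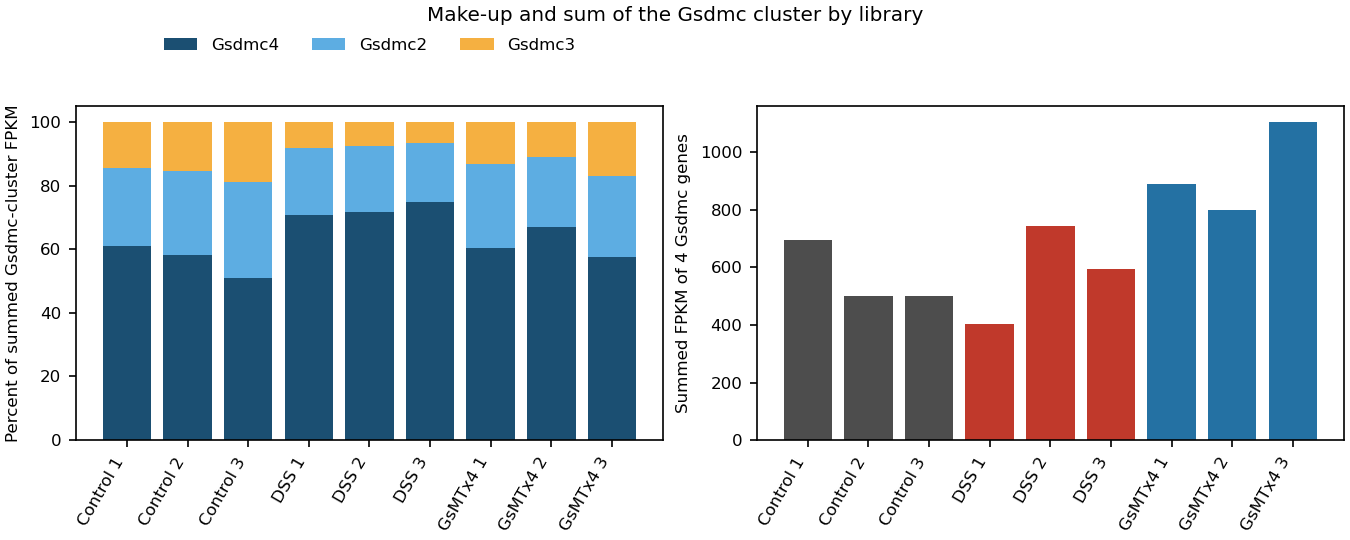
Left, the percent of the summed FPKM of the 4 gasdermin C genes held by Gsdmc4, Gsdmc2 and Gsdmc3 in each library (Gsdmc is too low to see); right, that sum. Gsdmc4 holds 70.6 to 74.9% in the DSS libraries against 50.9 to 66.9% in the other 6, and the sum is highest in the GsMTx4 libraries (800 to 1105 FPKM).

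In whole tissue, fewer cells of a type and less RNA per cell cannot be told apart. Set against the pan-epithelial marker sum of the same library, the gasdermin C sum was 0.108 to 0.124 in Control, 0.0787 to 0.142 in DSS and 0.170 to 0.202 in GsMTx4. The order of Control and DSS by mean ratio depended on the setting. With Epcam alone as denominator the means were 0.791 in Control, 0.919 in DSS and 1.57 in GsMTx4. They were 0.0615, 0.0498 and 0.0963 with mature colonocyte markers as denominator. Without Gsdmc4 in the sum they were 0.0499, 0.0318 and 0.0714. Gsdmc3 was 16.6 to 21.6 thousandths of the pan-epithelial marker sum in Control, 6.53 to 9.74 in DSS and 20.3 to 34.4 in GsMTx4. Gsdmd was 14.0 to 22.2 thousandths in Control, 38.0 to 48.2 in DSS and 19.7 to 31.3 in GsMTx4, with the DSS libraries above all others. Of the mature colonocyte markers (10 tested), 1 was called higher and 1 lower in DSS against Control, and 2 higher and 3 lower in GsMTx4 against DSS. Their median log2 fold change was 0.09 and -0.77, beside -0.17 and 0.07 over all genes. Over the alternatives run, 0 to 1 were higher and 1 to 2 lower in DSS against Control. In GsMTx4 against DSS, 1 to 2 were higher and 1 to 4 lower. Over all genes 6.41% were called higher and 10.7% lower in DSS against Control, and 6.66% and 5.62% in GsMTx4 against DSS. The neutrophil and macrophage sums given above were also highest in DSS, where Gsdmd was highest. So was the B and plasma cell marker sum, at 278 to 456 FPKM in Control, 529 to 773 in DSS and 368 to 448 in GsMTx4, with between 1 and 6 of 6 markers called higher in DSS against Control over the alternatives run (4 in the fit used here). The fibroblast marker sum was 111 to 125, 117 to 242 and 89.1 to 117 FPKM, with 3 of 5 markers called lower in GsMTx4 against DSS and 0 to 3 over the alternatives. Goblet cell, T and NK cell and smooth muscle sums overlapped between the groups. Goblet sums were 4469 to 6252 FPKM in Control, 3406 to 7106 in DSS and 3232 to 4572 in GsMTx4. T and NK sums were 37.7 to 44.5, 33.7 to 50.2 and 24.8 to 38.3 FPKM. Smooth muscle sums were 414 to 669, 198 to 804 and 524 to 691 FPKM. None of their markers was called in DSS against Control in the fit used here. The part of these cell types in the gasdermin values was not tested.

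Among the pseudogenes of the cluster, Gsdmcl2 was at 19.8, 14.7 and 13.4 FPKM in Control, 16.1, 18.3 and 20.3 in DSS and 28.6, 22.3 and 23.5 in GsMTx4. For this pseudogene the log2 fold change was 0.19 ± 0.17 in DSS against Control (SE, limma, adjusted p = 0.447) and 0.42 ± 0.17 in GsMTx4 against DSS (0.137). Gsdmcl-ps was at 1.20, 0.740 and 1.04 FPKM in Control, 1.76, 3.93 and 5.50 in DSS and 2.92, 1.37 and 1.02 in GsMTx4, a log2 fold change of 1.17 ± 0.33 in DSS against Control (SE, limma, adjusted p = 0.0419). That call was lost with no filter (adjusted p = 0.110), in TPM (0.0545), without Control replicates 1, 2 and 3 (0.0857, 0.130 and 0.101), without DSS replicates 2 and 3 (0.109 and 0.111) and without GsMTx4 replicate 2 (0.0559). Gsdmcl1 did not exceed 0.0741 FPKM.

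Of the 3 nearest protein-coding genes on each side of the cluster, 4 were tested. Over all genes, 6.41% were called higher and 10.7% lower in DSS against Control, and 6.66% and 5.62% in GsMTx4 against DSS. Among the 4, Asap1, a regulator of the cytoskeleton, was the 1 called. Its log2 fold change was 0.60 in DSS against Control (limma, adjusted p = 0.0313), and it did not pass without Control replicates 1, 2 and 3 (0.105, 0.0936 and 0.0744), without DSS replicate 1 (0.0855), with no filter (0.0645) or in TPM (0.0973). Fam49b, also on the minus strand and 16800 bases upstream of Gsdmc4, averaged 4.20 FPKM in Control, 5.37 in DSS and 4.48 in GsMTx4. Fam49b was not called. Mpp6 and Cycs near Gsdme and Psmd3 and Med24 near Gsdma were also tested and are not reported here. Around Gsdmd, Zc3h3 and Naprt were not called. Eef1d, a translation elongation factor subunit, was called higher in GsMTx4 against DSS, with a log2 fold change of 0.55 (limma, adjusted p = 0.0199), but not without DSS replicate 3 (0.0581), in TPM (0.0575) or with the compared groups only (0.0833). Beside Gsdme, the lipid-binding protein gene Osbpl3 was called higher in DSS against Control, with a log2 fold change of 0.84 (limma, adjusted p = 0.0119, and 0.0509 in TPM), and lower in GsMTx4 against DSS, with -0.83 (0.0166, and 0.0518 in TPM and 0.0584 with the compared groups only).

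Gsdma (chr11:98664351-98677708, plus strand), best known from skin, was at 0.181, 0.499 and 0.430 FPKM in Control, 0.741, 0.528 and 1.14 in DSS and 0.581, 0.308 and 0.350 in GsMTx4. Its DSS libraries were all above its Control libraries, on 9.67 to 53.5 implied fragments per library. Gsdme (chr6:50188888-50263862, minus strand) was at 0.697, 0.845 and 0.792 FPKM in Control, 0.543, 0.544 and 0.590 in DSS and 0.430, 0.699 and 0.399 in GsMTx4. Its DSS libraries were all below Control. Gsdme overlaps Mpp6 on the opposite strand over 10052 bases, and whether counting used strand is not given in the sources used here.

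For these 3 low genes an exact two-sided permutation test was used, which with 3 libraries against 3 cannot go below p = 0.1. In DSS against Control, Gsdmc, Gsdma and Gsdme each reached that smallest value (0.3 after Benjamini-Hochberg adjustment over 9 tests). The exact permutation p in GsMTx4 against DSS was 0.3, 0.2 and 0.5, and in GsMTx4 against Control 0.5, 0.9 and 0.2. The limma fit with no filter on low values called none of them, with adjusted p of 0.251, 0.211 and 0.391 in DSS against Control. Of the gasdermin genes outside the 7, Gsdma2 was listed at 0 in every library, Pjvk was listed at 0 in 8 libraries and at 0.0951 FPKM in GsMTx4 replicate 2, and Gsdma3 was not analysed here.

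Upstream of the gasdermins, inflammasome sensors bind danger signals and recruit caspase-1 through the adaptor ASC (gene Pycard). Of 13 sensors and adaptors listed, 11 were tested. In DSS against Control 1 rose and 5 fell, beside 6.41% and 10.7% of all genes. The median log2 fold change of the 11 was -0.02 beside -0.17 over all genes. The counts ranged from 1 to 2 higher and from 3 (without Control replicate 2 or 3) to 5 lower over the alternatives. Mefv, which encodes the sensor pyrin, was the gene that rose, from 1.76, 0.987 and 0.780 FPKM in Control to 3.38, 3.16 and 4.46 in DSS, with 1.41, 1.45 and 1.27 in GsMTx4. Its log2 fold change was 1.12 ± 0.19 in DSS against Control (SE, limma, adjusted p = 0.00594) and -0.96 ± 0.19 in GsMTx4 against DSS (0.0141).

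Nlrp6, a sensor of the intestinal epithelium, fell from 83.0, 72.2 and 78.2 FPKM in Control to 30.1, 34.8 and 19.3 in DSS, and was at 56.9, 40.4 and 57.7 in GsMTx4. The 3 groups did not overlap. Nlrp6 had a log2 fold change of -1.48 ± 0.23 in DSS against Control (SE, limma, adjusted p = 0.00409) and 0.88 ± 0.23 in GsMTx4 against DSS (0.0371). The second call was lost without any 1 library except DSS replicate 2 and GsMTx4 replicate 2: adjusted p was 0.0574, 0.0621 and 0.0621 without Control replicates 1, 2 and 3, 0.0621 and 0.0793 without DSS replicates 1 and 3, and 0.0759 and 0.0835 without GsMTx4 replicates 1 and 3. It was also lost with no filter (0.0830), median-of-ratios scaling (0.0840), the compared groups only (0.102) and sample weights (0.0553).

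Pycard moved the same way with tighter groups, from 50.8, 50.2 and 48.8 FPKM in Control to 26.1, 31.0 and 28.3 in DSS and 43.8, 46.4 and 55.1 in GsMTx4. Its log2 fold change was -0.79 ± 0.13 in DSS against Control (SE, limma, adjusted p = 0.00564) and 0.74 ± 0.13 in GsMTx4 against DSS (0.0102, and 0.0544 with the compared groups only). Nek7, a kinase needed for NLRP3 assembly, differed from these: it fell from 10.4, 10.1 and 9.96 FPKM in Control to 3.26, 3.42 and 5.10 in DSS and was at 2.86, 3.09 and 2.56 in GsMTx4. Its log2 fold change was -1.20 ± 0.15 in DSS against Control (SE, limma, adjusted p = 0.00207) and -1.54 ± 0.15 in GsMTx4 against Control (0.0036, and 0.058 without GsMTx4 replicate 1).

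The flagellin sensors Naip6 and Naip5 were the other members that fell in DSS against Control. Naip6 had a log2 fold change of -1.29 ± 0.28 (SE, limma, adjusted p = 0.0152), and 0.0603 and 0.0582 without Control replicates 2 and 3. Naip5 had one of -0.75 ± 0.20 (SE, limma, adjusted p = 0.0315), which did not pass without any 1 Control or DSS library (0.0543 to 0.109), with no filter (0.0686), in TPM (0.0560) or with median-of-ratios scaling (0.0555). In GsMTx4 against DSS the list had 2 members higher (Nlrp6 and Pycard), beside 6.66% of all genes, and 1 lower (Mefv), beside 5.62%. In GsMTx4 against Control it had 1 lower (Nek7), beside 0.0487%. The count higher in GsMTx4 against DSS was 1 without any 1 Control library, DSS replicate 1 or 3 or GsMTx4 replicate 1. It was also 1 with no filter, median-of-ratios scaling, sample weights or a replicate block, and 0 with the compared groups only.

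**Figure D4:**
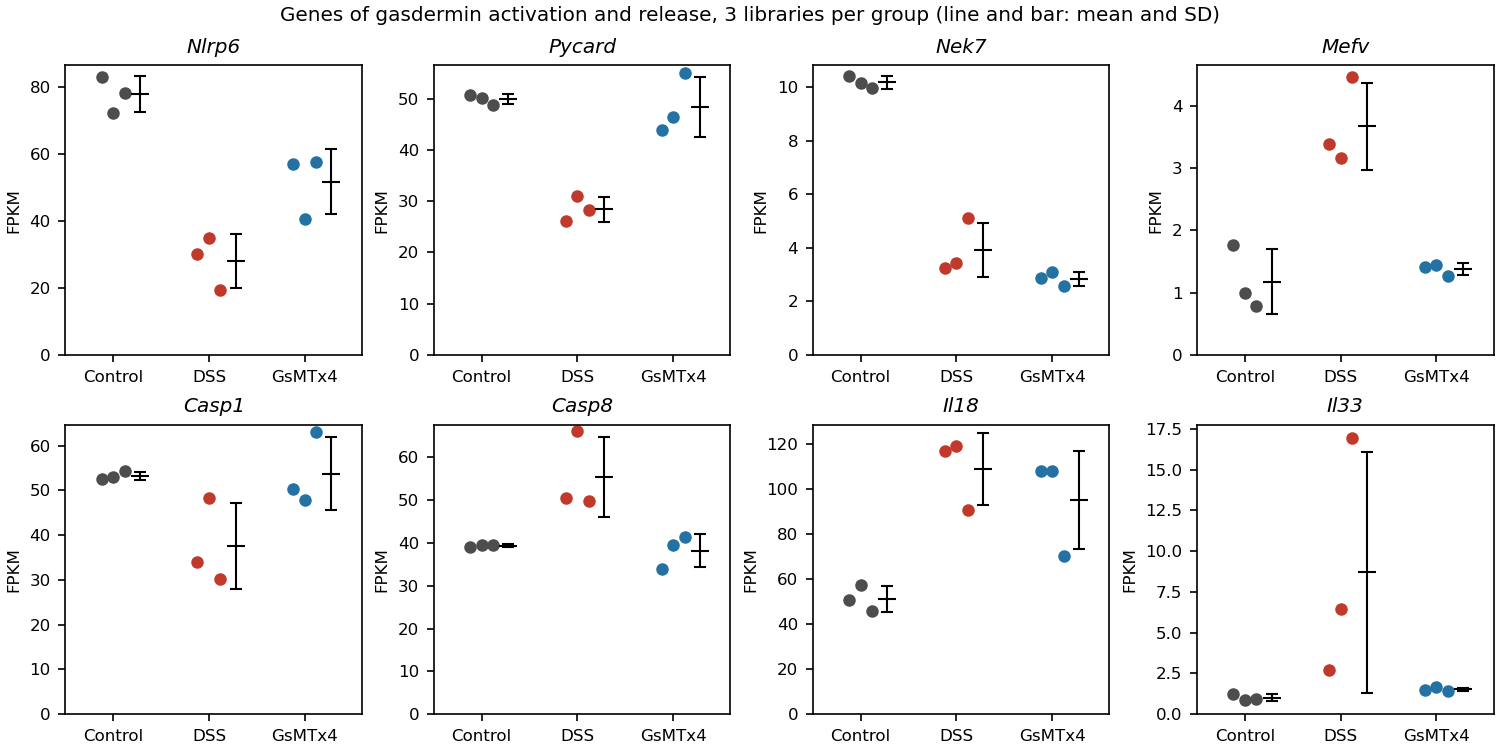
FPKM of 8 genes that act upstream or downstream of gasdermin pores in each library (points) with the mean and SD of each group of 3 libraries (line and bar), each panel on its own axis from 0. Nlrp6 and Pycard are lowest in DSS (19.3 to 34.8 and 26.1 to 31.0 FPKM), Mefv is highest there (3.16 to 4.46), and Nek7 is low in both groups given DSS (2.56 to 5.10).

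Of the proteases known to cut gasdermins, 8 of 10 were tested and limma called 0 in every comparison. Over all genes, 17.1% were called in DSS against Control, 12.3% in GsMTx4 against DSS and 0.237% in GsMTx4 against Control. At an unadjusted limma p under 0.05 were 5, 3 and 1 of the 8 proteases in these comparisons. The share of all genes at that level was 10.1% in GsMTx4 against Control and was not computed for the others. The median log2 fold change of the tested proteases was -0.14 in DSS against Control and 0.16 in GsMTx4 against DSS, beside -0.17 and 0.07 over all genes. Casp1 was at 52.4, 53.0 and 54.3 FPKM in Control, 34.1, 48.3 and 30.2 in DSS and 50.3, 47.8 and 62.9 in GsMTx4 (limma, adjusted p = 0.0816 and 0.0964). Its DSS libraries were below the Control libraries, and without DSS replicate 2 both differences passed (0.0281 and 0.0322), as did the first in TPM (0.0365) and with sample weights (0.0102). Casp8 was at 39.1, 39.5 and 39.6 FPKM in Control, 50.4, 66.1 and 49.7 in DSS and 33.9, 39.5 and 41.3 in GsMTx4, with the DSS libraries above all others (limma, adjusted p = 0.0565 and 0.0512). The first Casp8 difference passed without GsMTx4 replicate 3 (0.046), with median-of-ratios scaling (0.0376), quantile normalization (0.0324) and sample weights (0.0213), and the second at a mean of at least 5 FPKM (0.0465), in TPM (0.0494) and with quantile normalization (0.0310).

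Casp4 averaged 12.2 FPKM in Control, 18.1 in DSS and 17.9 in GsMTx4 and was not called, though DSS against Control passed without DSS replicate 1 (limma, adjusted p = 0.0255). The protease counts of 0 became 1 without DSS replicate 1 or 2 or without GsMTx4 replicate 1 or 3 in DSS against Control, in 1 or both directions, and 1 higher without DSS replicate 2 or GsMTx4 replicate 1 in GsMTx4 against DSS. Under other settings the counts in DSS against Control were 2 higher and 2 lower with sample weights, 2 lower in TPM, 1 higher with median-of-ratios scaling or quantile normalization, and 1 in each direction with the compared groups only. In GsMTx4 against DSS, 1 was lower in TPM, with quantile normalization and at a mean of at least 5 FPKM.

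Among the genes of released cargo and membrane rupture, all 6 were tested. Of these, 2 rose and 1 fell in DSS against Control, beside 6.41% and 10.7% of all genes. Their median log2 fold change was 1.27 beside -0.17 over all genes. Il18, whose product is cut by caspase-1 and leaves through gasdermin D pores, rose from 50.7, 57.4 and 45.9 FPKM in Control to 117, 119 and 90.9 in DSS and was at 108, 108 and 70.3 in GsMTx4. Il18 had a log2 fold change of 1.07 ± 0.20 in DSS against Control (SE, limma, adjusted p = 0.00946) and -0.21 ± 0.20 in GsMTx4 against DSS (0.527), with both DSS-treated groups above all Control libraries. Il33, an epithelial and stromal alarmin, was at 1.26, 0.853 and 0.940 FPKM in Control, 2.72, 6.44 and 17.0 in DSS and 1.46, 1.65 and 1.45 in GsMTx4, so that the DSS libraries were highest and far apart from each other.

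The log2 fold change of Il33 was 1.98 ± 0.45 in DSS against Control (SE, limma, adjusted p = 0.0192, and 0.0686 and 0.0624 without Control replicates 2 and 3 and 0.0594 with no filter). The fold change in GsMTx4 against DSS was -1.65 ± 0.45 (SE, limma, adjusted p = 0.045), the 1 call of the list in that comparison, and it did not pass without any 1 library but DSS replicate 1 (0.0557 to 0.117), with no filter (0.119), the compared groups only (0.109) or sample weights (0.10). Hmgb1, a nuclear protein released by lysed cells, fell in DSS against Control by 0.90 ± 0.15 on the log2 scale (SE, limma, adjusted p = 0.00601). Il1b averaged 4.73 FPKM in Control, 26.1 in DSS, where replicate 3 was at 56.3 and the others at 8.19 and 13.8, and 10.2 in GsMTx4 (limma, adjusted p = 0.0515 in DSS against Control). It passed without DSS replicate 1 (0.018) or DSS replicate 3 (0.0339), with pseudocounts of 0.1 (0.0477) and 0.01 (0.0485), with median-of-ratios scaling (0.0381), quantile normalization (0.0412) and sample weights (0.0279). The count of cargo genes called higher in DSS was 1 without Control replicate 2 or 3, 4 without DSS replicate 1 and 3 without DSS replicate 3. It was also 4 with pseudocounts of 0.1 and 0.01, median-of-ratios scaling, quantile normalization and sample weights, 3 in TPM, and 1 with no filter or at a mean of at least 5 FPKM.

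Of 7 genes of membrane repair and inhibition, 1 rose in DSS against Control, beside 6.41% of all genes, and the median log2 fold change was 0.23 beside -0.17 over all genes. Serpinb1a, an inhibitor of neutrophil proteases and inflammatory caspases, rose from 190, 179 and 174 FPKM in Control to 371, 526 and 319 in DSS and was at 313, 250 and 286 in GsMTx4. Its log2 fold change was 1.13 ± 0.20 in DSS against Control (SE, limma, adjusted p = 0.00781) and -0.49 ± 0.20 in GsMTx4 against DSS (0.142). The 3 groups did not overlap. Without Control replicate 3, 1 gene of this list was also called lower. In GsMTx4 against DSS limma called 0 of the 7, with 2 at an unadjusted p under 0.05. Over all genes 12.3% were called there, and the share at that unadjusted p was not computed.

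The type 2 cytokine and tuft cell list bears on the gasdermin C genes, which interleukin-4 and interleukin-13 are known to raise through the receptor chain encoded by Il4ra. Of 16 genes, 6 were tested. Il4ra and Retnlb, 2 of these, were called higher in DSS than in Control, beside 6.41% of all genes. The same 2 were called lower in GsMTx4 than in DSS, beside 5.62%. Il4ra was at 10.9, 11.9 and 11.6 FPKM in Control, 21.7, 27.3 and 31.5 in DSS and 12.6, 11.8 and 10.9 in GsMTx4. Il4ra had a log2 fold change of 1.14 ± 0.15 in DSS against Control (SE, limma, adjusted p = 0.00211) and -1.11 ± 0.15 in GsMTx4 against DSS (0.00361). Retnlb, a goblet cell product that type 2 cytokines also raise, was at 15.6, 13.0 and 12.4 FPKM in Control, 53.8, 277 and 157 in DSS and 15.5, 20.7 and 9.50 in GsMTx4.

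The log2 fold change of Retnlb was 3.20 ± 0.51 in DSS against Control (SE, limma, adjusted p = 0.00497) and -3.11 ± 0.51 in GsMTx4 against DSS (0.00773). Both Il4ra and Retnlb were highest in the DSS libraries, where Gsdmc3 was lowest. They were lower in the GsMTx4 libraries, where Gsdmc2 and Gsdmc3 were highest by group mean. No other tested gene of the list was called in either comparison. The summed level of the whole list overlapped between groups, at 433 to 1008 FPKM in Control, 275 to 1139 in DSS and 337 to 491 in GsMTx4. Whether these genes bear on the gasdermin C levels was not tested. The median log2 fold change of the 6 tested genes was 0.05 in DSS against Control and -0.20 in GsMTx4 against DSS, beside -0.17 and 0.07 over all genes.

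Of 8 interferon regulators and guanylate-binding protein genes, which include Irf1 and Irf2, 1 fell in DSS against Control, beside 10.7% of all genes, and the median log2 fold change was -0.52 beside -0.17 over all genes. That gene was Gbp7, with a log2 fold change of -1.10 ± 0.26 (SE, limma, adjusted p = 0.0214), which did not pass without any 1 Control library (0.0599, 0.0627 and 0.075), with no filter (0.057) or with median-of-ratios scaling (0.0577). The count of this list ranged from 0 to 3: it was 0 in those settings, 2 without GsMTx4 replicate 2, and 3 without GsMTx4 replicate 3, in TPM, with quantile normalization, the compared groups only or sample weights. In GsMTx4 against DSS limma called 0 of the 8, with 1 at an unadjusted p under 0.05, and the median was 0.45 beside 0.07 over all genes. Calls in that comparison made up 12.3% of all genes, and the share at that unadjusted p was not computed.

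Across the 9 libraries, log2(FPKM + 1) of Gsdmc2 and Gsdmc3 had a Pearson r of 0.93, Gsdmc2 and Gsdmc4 one of 0.69, and Gsdmc3 and Gsdmc4 one of 0.42. Gsdmd had r of -0.31 with Gsdmc2, -0.57 with Gsdmc3 and 0.18 with Gsdmc4. These 9 points share 3 groups, so the values describe group differences as much as libraries, and reads shared between copies enter the first 3. Outside the family, the genes most like Gsdmc2 were Scp2 (r = 0.96), Tpd52l2 (0.95) and Lap3 (0.95), and those most like Gsdmc3 were Sdhb (0.97), Cd9 (0.96) and Lap3 (0.96). The genes most like Gsdmc4 were Tmed2 (0.94), Tspan14 (0.93) and Morf4l1 (0.92). Those most like Gsdmd were Ltf (0.98), a neutrophil granule and mucosal protein, Acot9 (0.97) and Pde9a (0.97).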

How the data were processed

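Per the submitters' processing notes, cutadapt and FastQC were run on the reads and GRCm38 was used. Not given in the sources used here were the aligner, the program behind the FPKM and how it treated reads that match several copies. The authors deposited FPKM values for 35315 genes, of which 35196 had a symbol in GENCODE M21. FPKM is already divided by length and library size, so the deposited values were put on a log2 scale, log2(FPKM + 1), and fitted with limma 3.58.1 in R 4.3.3 (trend, 9 libraries, 6 residual degrees of freedom). The fit was also run on simulated data with independent noise per gene and library and no scaling shift or shared batch. The outcome is not reported here, and such data cannot show how calls move with scaling. Sums, permutation tests (scipy 1.17.1), coding-sequence comparisons (Biopython 1.88) and figures were made in Python 3.11.15. Implied fragments come from the steps of FPKM times length in low single-transcript genes and are approximate, since 44.9 to 51.5% of those values lay on a whole step or midway between whole steps (within 0.05 of the distance between neighbouring such points).

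Alternatives were other pseudocounts, filters, scalings (TPM, median of ratios, quantile), fits and sample weights, a replicate block and leaving out each library. The members and lists were chosen with earlier results of these data known. Genes named are all gasdermins, Casp1, Casp4, Casp8, Il1b and Il18 (1 other gene of this rule is not reported here), every called member of a pathway list with at most 5 calls, near neighbours and the 3 most correlated genes; marker lists of cell types are given only as sums and counts. Protein sequences were not used here, so a planned protein comparison was replaced by the coding sequence, chosen after seeing the data.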

Additional observations from a re-analysis of the deposited data

How the results depend on the processing

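The count of gasdermins lower in DSS than in Control, 1, was 0 with no filter, with median-of-ratios scaling and with a replicate block, and 0 to 1 leaving out 1 library. The 2 gasdermins higher in GsMTx4 than in DSS were 1 with no filter, median-of-ratios scaling, the compared groups only or a replicate block, and 1 to 2 leaving out 1 library, and the count lower was 0 to 1. The percent of all genes called in DSS against Control, 17.1, was 5.10 with no filter, 29.8 with sample weights and 6.75 to 21.6 leaving out 1 library. In GsMTx4 against DSS, 12.3 became 3.24 with no filter, 4.09 with the compared groups only, 7.51 with a replicate block and 4.63 to 13.7 leaving out 1 library. In GsMTx4 against Control, 0.237 became 0.146 and 0.0279 with pseudocounts of 0.1 and 0.01, 0.136 with no filter, 0.0655 at a mean of at least 5 FPKM, 1.27 with sample weights and 0.0351 to 0.407 leaving out 1 library. For the 4 tested gasdermins no direction changed. Leaving out 1 library, 94 of 108 values kept their status as called or not called, 12 lost a call and 2 gained one. Under the other alternatives 137 of 144 kept it and 7 lost a call. Most of these values belong to differences not called in the fit used here, so the totals understate how often a call was lost. The causes were not tested. Over all genes, the median in DSS against Control shifted by -0.11 in TPM, 0.16 with median-of-ratios scaling and 0.11 with quantile normalization. Replicate numbers are not said to pair the libraries, and no sign of pairing was seen. Same-numbered deviations correlated at -0.23 to 0.10 and different-numbered ones at -0.19 to 0.31. The best match was the same number in 5 of 18 comparisons of a library with another group. With 3 libraries a group, these values cannot exclude pairing or a shared batch. With the replicate block, adjusted p was 0.0576 for Gsdmc3 in DSS against Control, 0.0723 for Gsdmc2 in GsMTx4 against DSS and 0.0841 for Gsdmcl-ps in DSS against Control, and no other gasdermin call changed. Of the other named genes, the block ended the calls of Nlrp6 (0.0707) and Il33 (0.0651) in GsMTx4 against DSS and of Naip5 (0.0689) and Asap1 (0.0584) in DSS against Control. The low gasdermins rest on few fragments, and their depth is inferred.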
